A study of Mus musculus with 18 samples.

Results

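Regulatory T cells (Tregs) are a class of CD4 T cell that depends on the transcription factor Foxp3 and holds immune responses in check. They were compared here for 8 genes that sense, use or break down nucleotides or adenosine outside the cell. These are Entpd1, Nt5e, Adora2a, Ada, Cd38, Art2b, P2rx7 and P2rx4. The genes were picked by name from the 46078 genes of the deposited count tables, and all 8 passed the filter on low counts in every comparison. Tregs sorted by flow cytometry came from injured bone, injured muscle, wounded skin and infarcted heart, and from uninjured spleen. The injuries were a calvarial (skull) bone defect, volumetric muscle loss of the quadriceps, full-thickness punch wounds of the skin, and myocardial infarction by ligation of the left coronary artery. All mice were males of the Foxp3(DTR/GFP) strain, whose Foxp3 gene also drives a green fluorescent reporter and the diphtheria toxin receptor, and all were 10 weeks old. Each injured tissue was taken at day 7 and gave 3 libraries, every one a pool of cells from 3 mice. The spleen gave 6 libraries, with no statement on pooling. Neither the 4 tissues without injury nor spleens from injured mice were measured, so effects of the injury and of the tissue cannot be told apart.

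Damaged cells leak ATP and NAD. On the Treg surface the ectonucleotidase CD39 (gene Entpd1) strips phosphates from ATP down to AMP, CD73 (Nt5e) turns AMP into adenosine, and adenosine acts on T cells mainly through the receptor that Adora2a encodes, while adenosine deaminase (Ada) destroys it. ATP that is not degraded opens the ion channels P2X7 (P2rx7) and P2X4 (P2rx4). NAD is used up by CD38, and in the mouse the surface enzyme ART2.2 (Art2b) uses NAD to attach ADP-ribose to P2X7, which opens the channel and can kill T cells.

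In Tregs of the injured tissues the adenosine receptor gene was higher than in spleen Tregs, and the genes of the NAD-driven P2X7 arm were lower. Adora2a rose in all 4 tissues, between 1.78-fold in bone and 3.71-fold in skin. Art2b fell in all 4, between 2.36-fold in bone and 73.5-fold in skin, and P2rx7 fell 46.9-fold in skin (log2 fold change -5.55, and -6.67 without skin replicate 2), 7.16-fold in muscle and 3.40-fold in heart, while its lower level in bone did not pass the test. Cd38 rose in heart, 1.94-fold, and Entpd1 rose 1.87-fold in muscle. Entpd1 was also called in heart, 1.39-fold, but close to the threshold, and that call was lost in 12 of 21 alternative fits. Nt5e, P2rx4 and Ada did not pass the test against spleen in any tissue.

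Levels below are TMM-scaled CPM, that is, read counts scaled to the size of the library. Folds come from edgeR's quasi-likelihood test on the counts, with p-values adjusted by Benjamini-Hochberg over all genes tested, and a gene was called at an adjusted p under 0.05. The libraries carried names in 2 styles, Endo (spleen replicates 1 to 3, skin, and heart replicate 1) and Tregs (the others), and the model held that style as a term. Folds of bone and muscle therefore rest on spleen replicates 4 to 6 and those of skin on spleen replicates 1 to 3, and the 4 comparisons with spleen share its libraries. P-values measure the spread between libraries.

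Of the 8 genes, 3 were called in skin against spleen (1 higher, 2 lower), where 27.8% of all genes tested were called (15% higher, 12.8% lower). In muscle 4 were called (2 higher, 2 lower), beside 25.5% of all genes (14.2% higher, 11.3% lower). In heart 5 were called (3 higher, 2 lower), beside 20.3% (11.8% higher, 8.46% lower), and in bone 2 (1 higher, 1 lower), beside 14.8% (8.48% higher, 6.32% lower). Tissue and spleen libraries did not overlap in CPM for 4 of the 8 genes in skin, where this held for 33.9% of all genes, for 4 in muscle (26.6%), 5 in heart (23.2%) and 3 in bone (20.7%). As a list the 8 genes did not lean one way, with a median log2 fold change of -0.14 in skin, 0.13 in muscle, 0.23 in heart and -0.13 in bone, beside -0.07, -0.01, -0.03 and 0.01 for all genes.

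**Figure D1:**
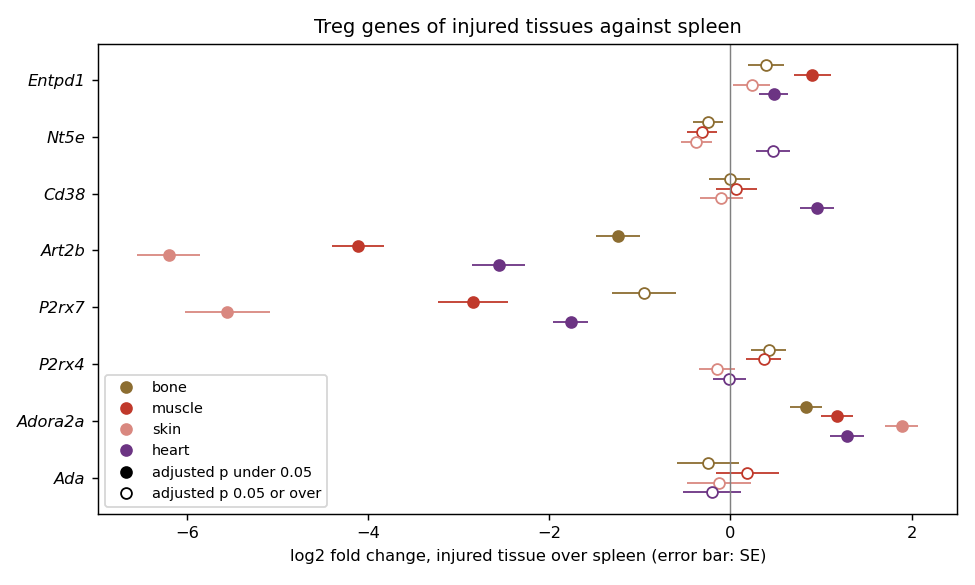
Log2 fold change of each gene (x axis, injured tissue over spleen; bar, SE) in bone, muscle, skin and heart, with filled symbols for an adjusted p under 0.05. Adora2a lies right of 0 in all 4 tissues and Art2b left of it in all 4, with skin farthest out at 1.89 and -6.20.

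Total counts per library ran from 8375212 to 11907745 in skin, from 11582403 to 13358526 in muscle, from 11139361 to 12974890 in heart and from 11588253 to 22635760 in bone, against 5970346 to 15756884 in spleen. Foxp3, which checks the sort, averaged 782 ± 64.7 CPM in skin, 706 ± 111 in muscle, 692 ± 64.4 in heart and 759 ± 15.8 in bone (SD, n = 3 each), against 406 ± 39.2 in spleen (n = 6). Summed Treg markers (Foxp3, Il2ra, Ctla4, Ikzf2) were 2284 to 2730 CPM in spleen. They were 6544 to 6819 in skin, 4605 to 5470 in muscle, 4601 to 5902 in heart and 4145 to 4746 in bone. All 4 were called higher in skin, muscle and bone, and 3 in heart, beside 15%, 14.2%, 8.48% and 11.8% of all genes. Summed T cell markers were 2037 to 2837 CPM in tissue libraries, against 2022 to 2708 in spleen. The part of the Treg marker difference in the results below was not tested. Genes of ribosomal RNA and of 7SK RNA took 2.13% to 6.37% of the counts in tissue libraries, against 5.35% to 8.93% in spleen, and with those genes left out the number of these 8 genes called against spleen was 3 in skin, 4 in muscle, 5 in heart and 2 in bone, as before. Summed markers of B cells, which also carry purinergic genes, stood at 5.92 to 11.2 CPM in muscle, 9.44 to 10.99 in skin, 16.6 to 50.4 in heart and 47.0 to 66.5 in bone, against 33.5 to 86.5 in spleen. All 6 of these markers were lower in muscle and in skin, and 1 each in bone and heart. Summed markers of macrophages and monocytes were 3.20 to 16.8 CPM in skin, 4.13 to 16.2 in muscle, 4.54 to 56.9 in heart and 9.52 to 17.8 in bone, against 20.7 to 35.3 in spleen. Of the 9 macrophage and monocyte markers 2 were at 0 in all bone and in all muscle libraries, and 1 of the 6 B cell markers was at 0 in all muscle libraries. Summed fibroblast markers were 9.76 to 105 CPM in skin, 1.95 to 44.4 in muscle, 6.31 to 8.85 in heart and 15 to 48.3 in bone, against 0 to 11.8 in spleen, and 1 of the 6 was called higher in bone and 1 in muscle. Summed endothelial markers, nearly all of them reads of Pecam1, which T cells also express, were 58.6 to 63.3 CPM in skin, 113 to 131 in muscle, 77.5 to 98.4 in heart and 112 to 129 in bone, against 130 to 164 in spleen. Summed neutrophil markers reached at most 27.7 CPM in any tissue library, against 26.2 in spleen, and those of CD8 T and NK cells ran from 12.6 to 34.2 in tissues, against 22.8 to 39.9 in spleen. The part of such cells in the results below was not tested. In bulk RNA of sorted cells, fewer cells of a kind and less RNA per cell cannot be told apart.

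**Figure D2:**
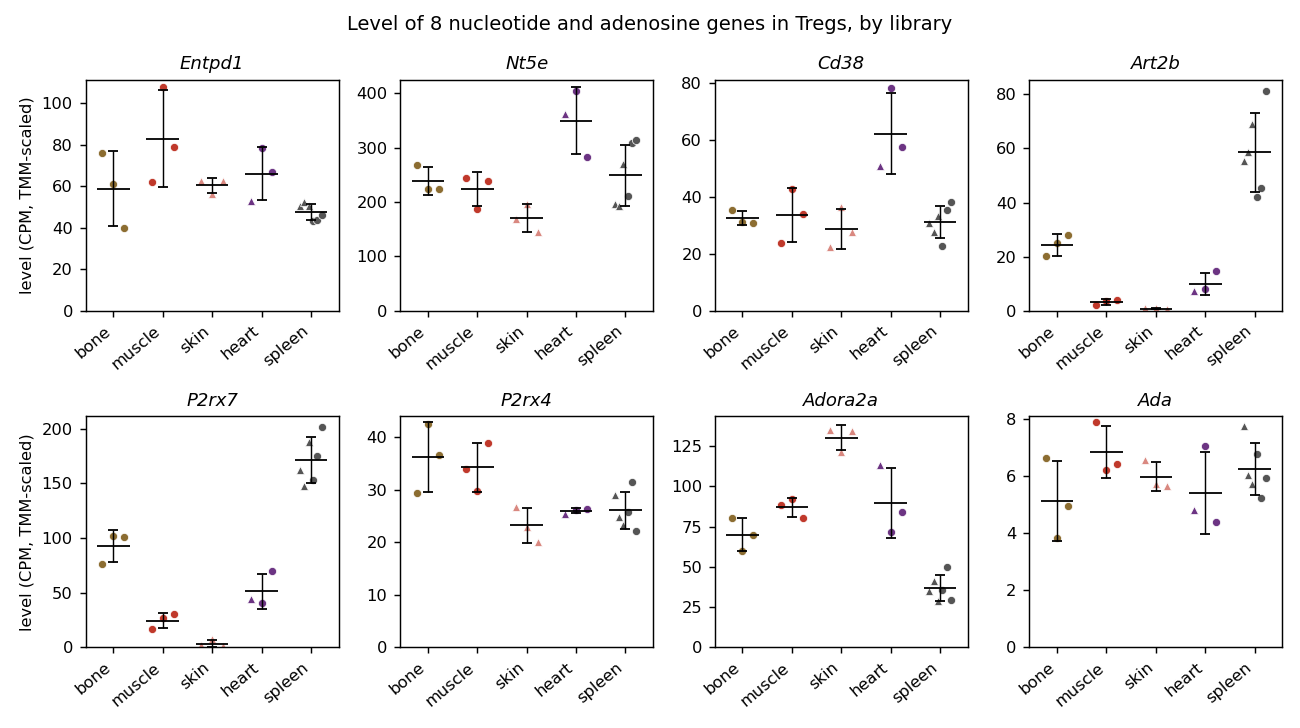
Level of each of the 8 genes (y axis, TMM-scaled CPM, linear from 0) in every library of bone, muscle, skin, heart and spleen; circles are libraries of the Tregs naming style, triangles those of the Endo style, bars the mean ± SD. Spleen stands highest for P2rx7 and Art2b and lowest for Adora2a, and heart stands highest for Cd38 and Nt5e.

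The breakdown of ATP begins with Entpd1, on the forward strand of chromosome 19 at chr19:40612366-40741602 (GRCm38, GENCODE M21). Entpd1 was at 61.9, 108 and 79.0 CPM in the muscle libraries, against 43.1 to 52.4 CPM in spleen with a median of 48.2. Every muscle library exceeded every spleen library, and the log2 fold change was 0.91 ± 0.20 (SE), adjusted p = 0.00163. In heart Entpd1 was at 52.8, 78.6 and 66.8 CPM, all above the same spleen range, the lowest by a narrow margin. That difference was small, 0.48 ± 0.16 on the log2 scale with an adjusted p of 0.0481, and it missed the threshold when all 18 libraries were fitted together (adjusted p = 0.0609), when limma-voom was used (0.0598) and when heart replicate 2 was left out (0.199). The heart call was also lost when any single spleen library was left out (adjusted p from 0.0511 to 0.102). The bone libraries spread from 39.7 to 75.9 CPM, across the spleen range (adjusted p = 0.216). Without bone library c, the lowest, the bone change was called (log2 fold change 0.61, adjusted p = 0.0379). Skin was tight at 56.3 to 62.6 CPM, above every spleen library but with a fold that did not pass against the spleen libraries of its own style (0.23 ± 0.20, adjusted p = 0.429). The spleen libraries of the Endo style averaged 51.2 CPM and those of the Tregs style 44.3 CPM.

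Nt5e, which makes adenosine, lies on the forward strand at chr9:88327197-88372092. It was at 361, 405 and 283 CPM in heart, against a spleen range of 193 to 314 CPM with a median of 240.4. The lowest heart library lay inside the spleen range, and the heart fold of 0.47 ± 0.18 on the log2 scale did not pass (adjusted p = 0.0866), although it did in the fit of all 18 libraries (adjusted p = 0.0305). Nt5e was at 168, 196 and 145 CPM in skin, 245, 188 and 239 CPM in muscle, and 267, 225 and 224 CPM in bone, with log2 fold changes against spleen of -0.38, -0.31 and -0.25 that did not pass. The lower level in skin did pass with no style term (-0.55, adjusted p = 0.0156) and without spleen replicates 1 and 2 (-0.63, 0.0439). Between injured tissues, heart exceeded skin by 0.90 ± 0.21 (adjusted p = 0.0172) and bone by 0.64 ± 0.19 (adjusted p = 0.0448). The call against bone was lost in 14 of 29 alternatives, among them no style term (adjusted p = 0.0822) and leaving out any bone library (0.0502 to 0.149), any skin library (0.0521 to 0.0538), or heart replicate 1 (0.0904) or 2 (0.199). That against skin was lost without heart replicate 1 (0.26) or without skin replicate 1 (0.0667) or 3 (0.0997). The ratio of Entpd1 to Nt5e counts within a library, chosen after the values were seen, was 0.287 to 0.431 in skin, against 0.142 to 0.272 in spleen (exact permutation test of log2 ratios, two-sided, p = 0.0238, adjusted p = 0.0317 over 12 ratio tests). In muscle it was 0.253 to 0.575 (p = 0.0476, adjusted p = 0.0571), in bone 0.177 to 0.284 (p = 0.321) and in heart 0.146 to 0.236 (p = 0.786, exact permutation tests). The smallest p these group sizes allow is 0.0119. These tests pool the spleen libraries of both styles. Against spleen of its own style alone (0.187 to 0.272) skin still lay above without overlap, as muscle did (spleen 0.142 to 0.204), but 3 libraries against 3 cannot give an exact p below 0.1, the value both had.

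Adora2a encodes the adenosine receptor through which the ligand raises cyclic AMP and dampens T cell activation, and lies on the forward strand at chr10:75316877-75334784. It was at 135, 121 and 134 CPM in skin, against 28.6 to 50.1 CPM in spleen with a median of 35.3. Muscle libraries held 88.7, 92.1 and 80.3 CPM, heart libraries 113, 71.5 and 83.9 CPM, and bone libraries 80.5, 59.8 and 69.8 CPM. No tissue library overlapped with any spleen library. The log2 fold changes were 1.89 ± 0.18 in skin (adjusted p = 3.86e-08), 1.17 ± 0.18 in muscle (2.7e-05), 1.29 ± 0.19 in heart (0.000299) and 0.84 ± 0.18 in bone (0.00176). Skin also exceeded bone by 1.05 ± 0.25 (adjusted p = 0.0111). Skin against muscle (0.72 ± 0.25, adjusted p = 0.205), heart against skin (-0.50 ± 0.22, 0.288) and heart against bone (0.33 ± 0.20, 0.338) did not pass, and heart and muscle averaged 89.6 ± 21.5 and 87.0 ± 6.06 CPM.

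Ada, on the reverse strand at chr2:163726584-163750239, had the lowest level per kilobase of exon of the 8 in spleen (3.12 ± 0.45 CPM per kb, SD, n = 6), with 35 to 101 counts in each spleen library. It ran from 5.67 to 6.59 CPM in skin, 6.22 to 7.89 in muscle, 4.38 to 7.05 in heart and 3.84 to 6.63 in bone, against 5.23 to 7.77 CPM in spleen. All tissues overlapped with spleen, and the adjusted p lay between 0.709 and 0.833. The standard errors were 0.32 to 0.36 on the log2 scale, against 0.16 and 0.20 for the called changes of Entpd1 in heart and muscle. The count ratio of Adora2a to Ada, receptor over degrading enzyme, was 20.5 to 23.7 in skin, 10.1 to 23.6 in heart, 11.2 to 14.8 in muscle and 12.1 to 15.6 in bone, against 4.51 to 9.58 in spleen. All 4 tissues lay above spleen without overlap (exact permutation test, two-sided, p = 0.0119 each, the smallest possible, adjusted p = 0.0178). This ratio too was chosen after the values were seen. Adora2a alone had no overlap with spleen in any tissue and Ada did not pass, so the ratio is no separate support. Within a style the exact p was 0.1 in skin, muscle and bone, the smallest possible there, and 0.2 in heart (2 libraries against 3).

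**Figure D3:**
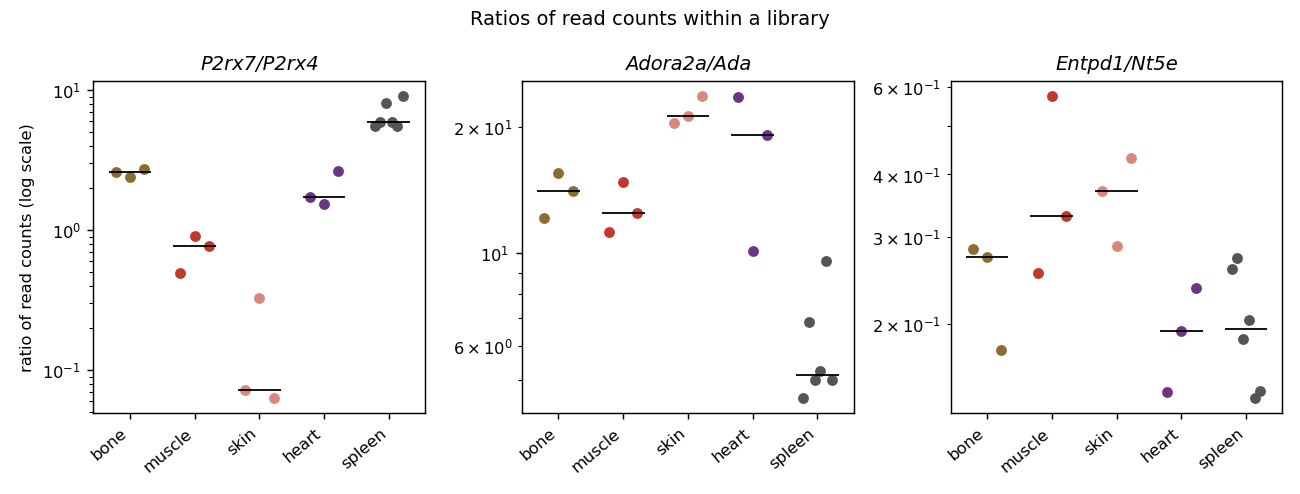
Ratio of read counts of 2 genes within each library (y axis, log scale; line, group median) for P2rx7 over P2rx4, Adora2a over Ada and Entpd1 over Nt5e in bone, muscle, skin, heart and spleen. P2rx7 over P2rx4 is at most 2.75 in the tissue libraries and at least 5.57 in the spleen libraries, and Adora2a over Ada is at least 10.1 in the tissue libraries and at most 9.58 in the spleen libraries.

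On the NAD side, Cd38 (forward strand, chr5:43868553-43912375) encodes the enzyme that consumes NAD at the cell surface. It was at 50.8, 78.4 and 57.8 CPM in heart, against 22.7 to 38.2 CPM in spleen with a median of 32.0. All heart libraries were above all spleen libraries, and above all libraries of bone (30.8 to 35.4 CPM), muscle (23.8 to 42.9) and skin (22.3 to 36.3), which overlapped with spleen. The heart fold against spleen was 0.96 ± 0.19 on the log2 scale (adjusted p = 0.00259), and those of bone (-0.01 ± 0.23), muscle (0.07 ± 0.23) and skin (-0.10 ± 0.23) did not pass. Tested directly, heart exceeded bone by 1.01 ± 0.23 (adjusted p = 0.0107) and skin by 0.98 ± 0.26 (0.0454), while heart against muscle missed the threshold (0.94 ± 0.23, 0.0735). The call against skin was lost in 15 of 30 alternatives, with an adjusted p of up to 0.218 (without skin replicate 1), and the call against bone without heart replicate 2 (0.0997), bone library b (0.0529) or bone library c (0.0502). Macrophages, which can express Cd38, had marker sums of 4.54 to 56.9 CPM in heart, against 20.7 to 35.3 in spleen, and their part in the Cd38 difference was not tested.

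Art2b lies on the reverse strand at chr7:101576970-101585600. It was at 0.915, 1.01 and 0.504 CPM in skin, from 10, 9 and 4 counts, against 42.0 to 81.4 CPM in spleen with a median of 56.8. Muscle libraries held 2.16, 3.67 and 3.88 CPM, heart libraries 7.35, 8.07 and 14.7 CPM, and bone libraries 20.1, 25.2 and 27.9 CPM. Groups did not overlap with spleen or with one another, and the order ran from skin through muscle, heart and bone up to spleen. The log2 fold changes against spleen were -6.20 ± 0.35 in skin (adjusted p = 5.3e-12), -4.11 ± 0.28 in muscle (2.68e-10), -2.56 ± 0.29 in heart (3.39e-05) and -1.24 ± 0.24 in bone (0.000812). B cell marker sums were below every spleen library in skin and muscle, overlapped with spleen in heart and lay inside the spleen range in bone, and the part of B cells in the Art2b differences was not tested.

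The neighbouring tissues in that order differed in direct tests, but these calls did not hold under all alternatives. The log2 difference was -2.09 ± 0.45 in skin against muscle (adjusted p = 0.0194), 1.65 ± 0.31 in heart against muscle (0.0169) and -1.23 ± 0.29 in heart against bone (0.0116). Of the 8 genes, 2 were called in skin against muscle, where 1.31% of all genes were called, and 1 in heart against muscle, where 0.452% were. Farther apart in the order, the difference was 2.88 ± 0.28 in bone against muscle (adjusted p = 1.8e-06), -4.96 ± 0.42 in skin against bone (1.82e-07) and 3.53 ± 0.42 in heart against skin (1.04e-05). In bone against muscle 2 of the 8 genes were called (4.86% of all genes), in skin against bone 3 (8.11%), in heart against bone 3 (6.68%) and in heart against skin 4 (2.38%). The call of Art2b in skin against muscle was lost in 7 of 26 alternatives (adjusted p up to 0.516, with limma-voom), that in heart against muscle in 4 of 30 (0.159 with limma-voom, 0.18 with libraries of 1 style) and that in heart against bone in 4 of 29 (0.0604 with libraries of 1 style). Among single libraries, skin against muscle lost its call without skin replicate 1 (adjusted p = 0.0566) or 3 (0.0842), muscle replicate 3 (0.0651) or spleen replicate 5 (0.0614), heart against muscle without heart replicate 3 (0.103), and heart against bone without heart replicate 2 (0.077) or bone library c (0.0527). With only the groups compared, the adjusted p was 0.0668, 0.194 and 0.0671 for the same pairs.

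Reads of Art2b can be hard to place, because a close copy, Art2a-ps, lies 16104 bp away on the same strand at chr7:101552453-101560865 and is annotated as a polymorphic pseudogene. Over 857 aligned bases of the 870-base coding sequence the 2 genes were 89.3% identical. The longest run they share is 125 bases, coding bases 94 to 218 of Art2b, shown because a read that falls inside it could come from either gene.
shared by Art2b and Art2a-ps: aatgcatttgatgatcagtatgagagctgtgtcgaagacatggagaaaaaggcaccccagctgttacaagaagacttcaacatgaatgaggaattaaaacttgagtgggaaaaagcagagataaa
Of all 50-base windows of the Art2b coding sequence 15.1% have an exact match in the copy, of 75-base windows 7.79% and of 100-base windows 3.37%. Most coding windows thus have no identical match there. The rest of the 2828 exon bases of Art2b was not compared, so how well reads tell the 2 genes apart was not measured. A stretch of 60 bases (coding bases 558 to 617 of Art2b, from its start codon) shows how they differ, with the 15 mismatches in capitals.
Art2b: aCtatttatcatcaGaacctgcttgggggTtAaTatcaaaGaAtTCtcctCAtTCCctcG
Art2a-ps: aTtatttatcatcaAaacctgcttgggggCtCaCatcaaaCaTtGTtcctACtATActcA
The sources used here do not give the treatment of reads that map to several places. Art2a-ps itself was at 3.64 to 26.3 CPM in spleen, from 22 to 371 counts. Its libraries had 0 to 2 counts in skin, 2 to 13 in muscle, 12 to 20 in heart and 19 to 92 in bone. It was called lower in all 4 tissues. Log2 fold changes were -6.42 in skin, -4.52 in muscle, -3.17 in heart and -2.46 in bone. The adjusted p was 0.000364, 0.000644, 0.00983 and 0.0316 in that order. At such low counts the sizes of the skin and muscle folds are imprecise. In bone, Art2a-ps ran from 0.798 to 4.49 CPM and overlapped with spleen. Its bone call was lost with all 18 libraries in one fit. In the main fits both Art2b and Art2a-ps were called lower in every tissue, and how reads were split between them is uncertain.

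P2rx7 lies on the forward strand at chr5:122643911-122691432, and its channel is opened by high ATP or, in mouse T cells, by ART2.2 and NAD. It was at 1.92, 7.51 and 1.26 CPM in skin, against 148 to 201 CPM in spleen with a median of 168. Muscle libraries held 16.7, 26.9 and 30.2 CPM, heart libraries 44.1, 40.3 and 69.9 CPM, and bone libraries 75.9, 102 and 101 CPM. As with Art2b, levels climbed from skin over muscle, heart and bone to spleen with no overlap between groups. The log2 fold changes against spleen were -5.55 ± 0.47 in skin (adjusted p = 1.35e-06), -2.84 ± 0.38 in muscle (0.000125) and -1.76 ± 0.19 in heart (2.21e-05). The 67 counts of skin replicate 2 stood apart from the 21 and 10 of the other skin libraries, and without that library the log2 fold change in skin was -6.67.

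In bone the P2rx7 log2 fold change was -0.95 ± 0.35 and missed the threshold (adjusted p = 0.0985) in the fit that shares 1 spread between bone, muscle, skin and spleen. With bone and spleen fitted alone the fold was -0.95 and the adjusted p 0.000383, and without skin replicate 2 they were -0.95 and 0.000837. With all libraries kept, it was also called with limma-voom (adjusted p = 0.000392) and with no filter (1.46e-06). Between tissues, bone exceeded muscle by 1.89 ± 0.37 (adjusted p = 0.0141) and heart exceeded skin by 3.74 ± 0.48 (0.000637), while the difference was -4.60 ± 0.57 in skin against bone (0.000526) and -2.71 ± 0.57 in skin against muscle (0.0428). Heart against bone (-0.79 ± 0.38, adjusted p = 0.235) and heart against muscle (1.10 ± 0.38, 0.325) did not pass, and both passed without skin replicate 2 (0.0333 and 0.0229), with limma-voom (0.0218 and 0.0337) and with no filter (0.00171 and 4.22e-06). Without skin replicate 2 the differences that involve skin were -5.72 against bone, -3.83 against muscle and 4.86 for heart against skin. The call in bone against muscle was lost without bone library b (0.0551) or c (0.0595), and that in skin against muscle in 12 of 26 alternatives, with an adjusted p of up to 0.142.

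P2rx4, the other ATP-gated channel gene here, starts 16111 bp downstream of P2rx7 on the same strand, at chr5:122707544-122729738. It did not share the fall of its neighbour, with 20.02 to 26.7 CPM in skin, 29.8 to 39.0 in muscle, 25.4 to 26.4 in heart and 29.4 to 42.6 in bone, against 22.2 to 31.4 CPM in spleen. Log2 fold changes were -0.15 ± 0.20 in skin, 0.37 ± 0.20 in muscle, -0.01 ± 0.18 in heart and 0.42 ± 0.19 in bone, and none passed (adjusted p from 0.164 to 0.975). Within a library, P2rx7 had 0.0629 to 0.327 times the counts of P2rx4 in skin, 0.491 to 0.904 times in muscle, 1.54 to 2.65 times in heart and 2.40 to 2.75 times in bone, against 5.57 to 9.06 times in spleen. This ratio does not depend on scaling between libraries. It was below spleen in all 4 tissues (exact permutation test, two-sided, p = 0.0119 each, the smallest possible, adjusted p = 0.0178 over 12 ratio tests). The ratio was chosen after the values were seen, and P2rx7 alone already had no overlap with spleen. These p-values are thus no separate support for a fall of P2rx7. In bone the ratio also holds the P2rx4 change of 0.42, which did not pass. Within a style no tissue overlapped with spleen either, with an exact p of 0.1 each, the smallest possible there.

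**Figure D4:**
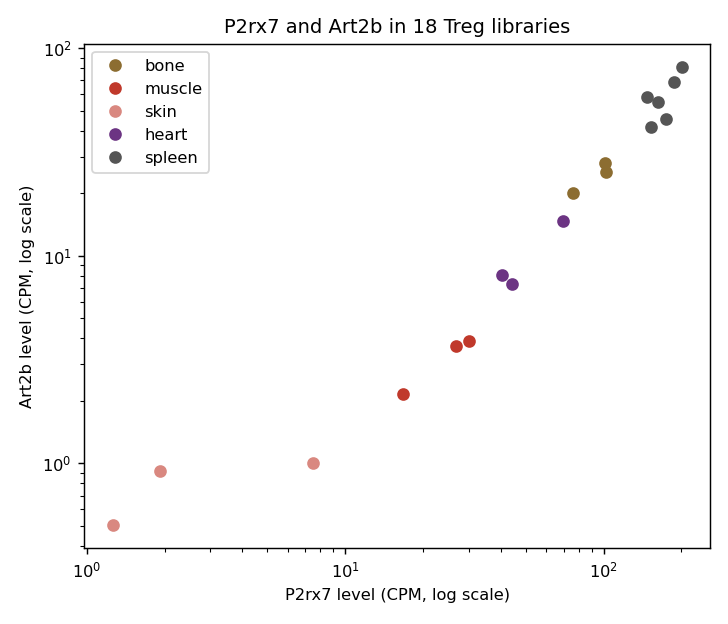
Art2b level (y axis) against P2rx7 level (x axis), both in TMM-scaled CPM on log scales, 1 point for each of the 18 libraries coloured by tissue. The libraries lie along 1 diagonal, from skin (P2rx7 1.26 to 7.51, Art2b 0.504 to 1.01 CPM) through muscle, heart and bone up to spleen (148 to 201 and 42.0 to 81.4 CPM).

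P2rx7 and Art2b, channel and activating enzyme, followed each other over the 18 libraries with a Pearson r of 0.961 in log2 CPM, mostly through the differences between groups. Adora2a ran opposite to both, with r of -0.902 to Art2b and -0.843 to P2rx7, and Nt5e and Cd38 had an r of 0.704. Because P2rx7 and Art2b moved together, their start regions are shown, from the RefSeq table for GRCm38.p6, each from 250 bases before to 50 bases after an annotated start and on the gene's own strand. P2rx7 has 2 annotated starts, at windows chr5:122643677-122643976 and chr5:122650133-122650432, and gene counts do not separate them. The Art2b window is chr7:101581112-101581411. It lies inside the gene's GENCODE span, whose 5′ end on the reverse strand is at 101585600. Capitals mark matches to an AP-1 motif (TGANTCA) or a RUNX motif (TGTGGT, here on the opposite strand).
P2rx7 start 1: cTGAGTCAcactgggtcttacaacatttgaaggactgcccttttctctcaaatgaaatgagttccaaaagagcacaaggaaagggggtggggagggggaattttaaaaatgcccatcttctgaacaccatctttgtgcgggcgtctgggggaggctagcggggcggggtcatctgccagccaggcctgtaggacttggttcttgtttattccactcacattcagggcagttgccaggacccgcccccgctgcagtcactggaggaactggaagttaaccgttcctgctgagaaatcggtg
P2rx7 start 2: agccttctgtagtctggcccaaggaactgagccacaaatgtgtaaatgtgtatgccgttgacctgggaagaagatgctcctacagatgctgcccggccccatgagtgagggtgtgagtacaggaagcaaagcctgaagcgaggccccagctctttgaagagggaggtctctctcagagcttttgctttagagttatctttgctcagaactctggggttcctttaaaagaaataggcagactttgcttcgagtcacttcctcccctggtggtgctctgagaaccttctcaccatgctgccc
Art2b: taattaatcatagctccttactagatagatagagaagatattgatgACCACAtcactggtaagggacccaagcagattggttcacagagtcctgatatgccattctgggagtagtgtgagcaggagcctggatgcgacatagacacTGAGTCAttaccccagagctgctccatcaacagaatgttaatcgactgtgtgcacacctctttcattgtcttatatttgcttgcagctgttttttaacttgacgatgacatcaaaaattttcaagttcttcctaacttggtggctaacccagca
Counted from the 5′ end of a window, the AP-1 letters stand at bases 2 to 8 of the first P2rx7 window and 147 to 153 of the Art2b window, and the RUNX letters at bases 47 to 52 of the Art2b window. Both strands were searched, the matches do not overlap, and windows were at hand for 7 of the 8 genes (Adora2a had none). Among all 32851 start windows, 7.81% hold the AP-1 letters and 16.8% the RUNX letters, and of the 9 windows of these genes 2 hold each, the other RUNX match being in Entpd1. A forkhead motif (GTAAACA, in 3.65% of all windows) and a cyclic AMP response motif (TGACGTCA, in 1.79%) were in 0 of the 9. A match in such a window is a description of its letters and does not show that a factor binds.

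Levels per kilobase of exon allow the genes to be compared with each other. In skin Tregs Adora2a stood first at 42.5 ± 2.5 CPM per kb and Nt5e second at 19.8 ± 3.0, with P2rx7 at 0.597 ± 0.576 and Art2b at 0.286 ± 0.095 last (SD, n = 3). In spleen Tregs Nt5e and P2rx7 shared the first place at 28.9 ± 6.5 and 28.7 ± 3.5 CPM per kb, a gap smaller than either SD, followed by Art2b at 20.7 ± 5.2 and, lower, by Adora2a (n = 6). In muscle Adora2a (28.4 ± 2.0) and Nt5e (26.0 ± 3.7) led and differed by less than the larger SD, with Entpd1 at 14.9 ± 4.2 and P2rx7 at 4.12 ± 1.18. In heart Nt5e came first at 40.6 ± 7.2, then Adora2a at 29.3 ± 7.0 and Cd38 at 16.0 ± 3.7. In bone Nt5e (27.7 ± 2.9) and Adora2a (22.9 ± 3.4) were followed by P2rx7 at 15.6 ± 2.5. P2rx4 and Ada stayed between 2.57 and 5.15 CPM per kb in every group.

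The genes whose log2 CPM followed each of these most closely over the 18 libraries were picked by Pearson r among 8416 well-measured genes, as a description that rests on differences between groups. Closest to Art2b were Tcf7 (r = 0.983), Bcl2 (0.977) and Aff3 (0.973). Tcf7, which encodes the transcription factor TCF-1, averaged 15.6 CPM in skin, 44.8 in muscle, 117 in heart and 182 in bone, against 427 CPM in spleen. Closest to P2rx7 were Zfp827 (0.974), Hdgfrp3 (0.963) and Clec2i (0.961), and closest to Adora2a were Snx18 (0.956), Emb (0.954) and Map2k3 (0.954). Snx18 averaged 512 CPM in skin, 329 in muscle, 346 in heart and 233 in bone, against 106 CPM in spleen. For the others the likeness was weaker, with Cd6 (0.890) and then Acpp (0.848) for Entpd1, Lztfl1 for Cd38 (0.881), Faah for P2rx4 (0.823), Ypel2 for Nt5e (0.818) and Smarcal1 for Ada (0.677). Lztfl1 averaged 98.8 CPM in heart, and 16.4 in skin, 32.9 in muscle, 30.98 in bone and 25.3 in spleen.

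A list of 34 further genes of the same pathways held channels and transporters, nucleotide-splitting enzymes, P2X, P2Y and adenosine receptors and ADP-ribosyltransferases. All were in the table, and 18 passed the filter in each comparison with spleen. Of these 18, 7 were called in skin (4 higher, 3 lower), beside 27.8% of all genes, 6 in muscle (2 higher, 4 lower), beside 25.5%, 6 in heart (1 higher, 5 lower), beside 20.3%, and 3 in bone (1 higher, 2 lower), a share near the 14.8% of all genes there. Dpp4, whose product CD26 binds adenosine deaminase at the cell surface of human T cells, was at 13.9, 25.6 and 23.2 CPM in skin, against 77.2 to 109 CPM in spleen with a median of 97.5. It was at 53.8, 19.7 and 26.9 CPM in muscle, at 43.4, 38.7 and 43.8 CPM in heart and at 51.4, 71.9 and 81.1 CPM in bone. Only the highest bone library reached the spleen range. The log2 fold changes were -2.15 ± 0.32 in skin (adjusted p = 8.4e-05), -1.58 ± 0.30 in muscle (0.00119) and -1.20 ± 0.15 in heart (7.2e-05), while bone did not pass (-0.58, 0.229). Skin was also below bone, with a log2 difference of -1.58 ± 0.43 (0.0342).

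Pnp, the purine nucleoside phosphorylase that acts on inosine after adenosine is deaminated, was at 61.6, 38.1 and 41.0 CPM in skin, against 14.5 to 29.8 CPM in spleen. It rose by 0.90 ± 0.24 on the log2 scale in skin (adjusted p = 0.00537), 0.70 ± 0.23 in bone (0.0444) and 0.67 ± 0.23 in muscle (0.0372), and in heart the change of 0.36 did not pass (0.312). Bone and muscle libraries, at 20.6 to 31.7 and 21.4 to 31.2 CPM, overlapped with spleen, whose Endo-style libraries ran from 18.7 to 29.8 CPM and Tregs-style libraries from 14.5 to 18.9. Acpp, a phosphatase that can split AMP, was at 15.1, 25.4 and 17.2 CPM in muscle, against 7.27 to 11.2 CPM in spleen, and was called higher in muscle (0.95 ± 0.33, 0.0366) and in no other tissue. Art4, an ADP-ribosyltransferase gene, had 0 to 10 counts in muscle, skin and heart libraries, against 18 to 53 in spleen, and was called lower in those 3 tissues (adjusted p = 0.034, 0.00726 and 0.0122).

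Among receptors, Adora2b, which encodes the A2B adenosine receptor, was called higher in skin (adjusted p = 0.0169) and heart (0.0405), at 16 to 22 and 12 to 32 counts per library. In spleen 4 of 6 libraries held 0 counts and the others 2 and 15, so no fold is given. P2ry12, an ADP receptor, had 0 to 2 counts in muscle and 0 to 1 in heart, against 2 to 38 in spleen, and was called lower in both (adjusted p = 0.0316 and 0.00866). Bst1, the relative and neighbour of Cd38 at a gap of 24566 bp, did not exceed 12 counts in any muscle, skin or heart library, reached 82 in bone library b and at most 7 in spleen, and was not called in any comparison with spleen. The P2X receptor genes P2rx1, P2rx2, P2rx3, P2rx5 and P2rx6 did not pass the filter, with at most 8 counts in a spleen library, so P2rx7 and P2rx4 were the P2X genes that could be tested.

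**Figure D5:**
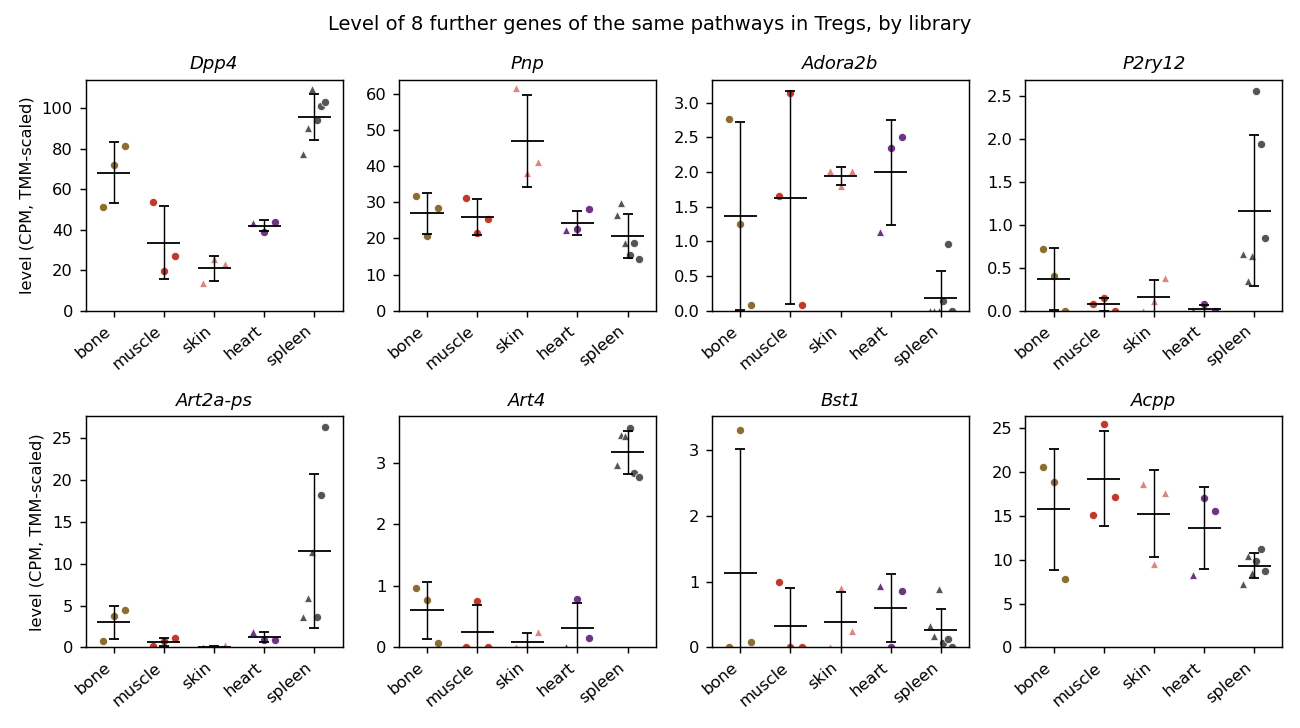
Level of 8 further genes of the nucleotide pathways (y axis, TMM-scaled CPM, linear from 0) in every library of bone, muscle, skin, heart and spleen; circles are libraries of the Tregs naming style, triangles of the Endo style, bars the mean ± SD. Dpp4, Art2a-ps and Art4 stand highest in spleen, Pnp highest in skin, and Adora2b, P2ry12, Bst1 and Art4 stay under 4 CPM throughout.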

How the data were processed

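RNA of sorted Tregs was sequenced in 18 libraries made from 1 ng of RNA each with the Ovation Solo kit, per the labels' protocols. The authors deposited raw counts per gene in a pair of tables, with identical spleen columns. Alignment and counting are named only as STAR and featureCounts, on GRCm38 and with limma also listed, per the submitters' processing notes, with no versions. Which annotation was used, whether counting kept the strand and how multi-mapping reads were handled is not given in the sources used here. No per-sample column was left out, and for 2 bone columns (libraries b and c) no label ties the column to one of the bone samples, so they were used as bone libraries without a replicate number.

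After the filterByExpr filter and TMM scaling, edgeR 4.0.16 (R 4.3.3) fitted robust quasi-likelihood models with terms for group and for naming style. F tests gave p-values, which were adjusted by Benjamini-Hochberg over all genes tested, with a threshold of 0.05. One model covered the 15 libraries of bone, muscle, skin and spleen, another the 9 of heart and spleen, and the last all 18, for heart against other tissues. Outside heart only spleen carried both styles, so skin against bone or muscle also rests on the gap between spleen styles. The scripts were tested on simulated data. Alternatives used DESeq2 1.42.0, limma-voom (limma 3.58.1), RLE scaling, other filters (none, or CPM above 1 in 3 libraries), no style term, libraries of 1 style, a replicate block, and left out ribosomal RNA genes, spleen libraries or each replicate in turn. A fit of all 18 libraries, fits of only the groups compared and ratio tests within a style were added after seeing the data.

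The 8 genes and all lists were chosen with earlier results of these data known. Named from the list of 34 were genes called against spleen in at least 2 tissues, plus Art2a-ps and Bst1, and Acpp as a gene of like pattern to Entpd1. Genes of like pattern were the 3 with the highest r for each member at a mean log2 CPM of at least 3 (prior count 2), without Xist, Y-linked genes, clone names and antigen receptor genes. The 3 count ratios were chosen after the values were seen. Replicate libraries differed by far more than counting noise. Replicate numbers 1 to 3 of muscle, skin, heart and spleen were checked for pairing: of 18 same-numbered pairs, 0 had deviations correlated over 0.1. These numbers are those of the sample titles, which for muscle and heart differ from the numbers in the column names. Other pairings were not tested. Positions are from GENCODE M21, and the coding sequence of Art2b was aligned locally to the best-matching Art2a-ps transcript with Biopython 1.88.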

Additional observations from a re-analysis of the deposited data

Results flagged for a closer look

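Injured tissues were tested against each other with edgeR's quasi-likelihood test, and all differences below are in log2 units. Effects against spleen differed between injured tissues for 5 of the 8 genes. Over all genes tested, the share called was 4.86% in bone against muscle, 8.11% in skin against bone and 1.31% in skin against muscle. For heart it was 6.68% against bone, 0.452% against muscle and 2.38% against skin. Art2b differed in every pair of tissues, by 2.88 in bone against muscle, -4.96 in skin against bone, -2.09 in skin against muscle, -1.23 in heart against bone, 1.65 in heart against muscle and 3.53 in heart against skin. P2rx7 differed by 1.89 in bone against muscle, -4.60 in skin against bone, -2.71 in skin against muscle and 3.74 in heart against skin. Adora2a differed by 1.05 in skin against bone. Cd38 differed by 1.01 in heart against bone and 0.98 in heart against skin, and Nt5e by 0.64 and 0.90 in the same comparisons. Several of these calls were lost under alternatives. Among them were Nt5e in heart against bone (lost in 14 of 29) and Cd38 in heart against skin (15 of 30). In skin against muscle, P2rx7 was lost in 12 of 26 alternatives and Art2b in 7 of 26. No library of a spleen group stood apart from the others by Dixon's test for any of the 8 genes, and groups of 3 were not tested that way.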

How the results depend on the processing

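Fold changes were followed for 49 combinations of gene and comparison. Of the 29 that were called, 19 stayed called under every alternative, 10 missed the threshold under at least 1, and 0 changed sign. Against spleen the calls of Adora2a, Art2b, Cd38 and P2rx7 and of Entpd1 in muscle were kept throughout, and Entpd1 in heart was lost in 12 of 21 alternatives (adjusted p up to 0.255). P2rx7 in bone was gained with libraries of 1 style (adjusted p = 0.00012), limma-voom (0.000392), no filter (1.46e-06) and without skin replicate 3 (0.0488). The number of members called changed in skin against bone with only those groups fitted (5 in place of 3). In skin against muscle it was 1 in place of 2 with limma-voom, without 2 ribosomal-RNA-rich spleen libraries (replicates 1 and 2) and with all 18 libraries. In heart against muscle it was 0 with libraries of 1 style or only those groups, 3 with DESeq2 and 4 with no filter, in place of 1. Of the pathway list, called genes numbered 1 with no style term and 0 with all 18 libraries in bone (in place of 3), 3 with limma-voom in muscle (6), 4 with limma-voom in skin (7) and 3 with libraries of 1 style in heart (6).

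Leaving out 1 library gave 3 to 3 members called in skin against spleen, 4 to 4 in muscle, 4 to 5 in heart, 2 to 3 in bone, 1 to 3 in bone against muscle, 3 to 3 in skin against bone, 0 to 2 in skin against muscle, 0 to 3 in heart against bone, 1 to 2 in heart against muscle and 2 to 4 in heart against skin. For the pathway list it gave 6 to 8 in skin, 2 to 6 in muscle, 4 to 5 in heart and 0 to 3 in bone. Changes that did not pass and turned sign were Cd38 in bone (0.0206 with no style term, 0.0315 with limma-voom, 0.0152 with no filter, 0.00536 without ribosomal RNA genes, 0.00475 without 2 spleen libraries), Nt5e in muscle (0.0201 with the replicate block), P2rx4 in skin (0.0364) and Ada in skin (0.103) without 2 spleen libraries, and P2rx4 in heart (0.0189 with the block, 0.00179 with limma-voom, 0.0320 without 2 spleen libraries). Leaving out 1 library moved Cd38 between -0.19 and 0.15 in bone, -0.16 and 0.26 in muscle and -0.31 and 0.10 in skin, Ada in skin between -0.213 and 0.0593 and P2rx4 in heart between -0.0770 and 0.0789. The causes were not tested.

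With the replicate block in place of the style, 4 members were called in muscle against spleen, 3 in skin, 4 in heart (in place of 5), 3 in skin against muscle (in place of 2), 1 in heart against muscle and 4 in heart against skin, while the count over all genes was 1090 in skin against muscle (in place of 205) and 806 in heart against skin (in place of 379). No paired analysis was possible for bone because no label ties 2 of its columns to a numbered sample. Correlations of same-numbered libraries ran from -0.129 to 0.0963. Counts over all genes moved by more than 1.5 times in 7 comparisons. Apart from leaving out 1 library, they ran from 75 (limma-voom) to 1442 (only those groups) in skin against muscle, where 205 is reported, 23 (only those groups) to 380 (no filter) in heart against muscle (72), 281 (limma-voom) to 1243 (1 style) in heart against skin (379), 705 (2 spleen libraries out) to 4272 (only those groups) in skin against bone (1267), 432 (no style term) to 1270 (DESeq2) in bone against muscle (759), and up to 1630 (DESeq2) in heart against bone (1064) and down to 2548 (2 spleen libraries out) in skin against spleen (4342). Leaving out 1 library took them as low as 256 in bone against muscle (bone c), 429 in heart against bone (bone b), 27 in heart against muscle (muscle replicate 3) and 205 in heart against skin (skin replicate 3). Skin shares no style with bone or muscle, so that alternative gave no value there. Low counts limit the precision for Ada, and for Art2b and P2rx7 in skin.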
